A study of Bos grunniens and Bos grunniens x Bos taurus with 2 samples.

Results

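The genes described here encode the ligands, receptors, antagonists and transducers of transforming growth factor beta (TGF-beta), bone morphogenetic protein (BMP), activin and inhibin signalling. They were chosen by symbol among the features of the deposited count tables, taking every *TGFB*, *TGFBR*, *BMP*, *BMPR*, *GDF*, *INHA*, *INHB*, *ACVR* and *SMAD* gene together with follistatin (*FST*), *FSTL1*, *FSTL3*, *NOG* and *CHRD*. The rule found 53 of 26961 features, and no measured value was used to choose them. *GREM1* and *AMHR2* were named by the rule as well, but no feature carried these symbols. Of all features 15722 had a gene symbol, so a member without a symbol would not be found. A total of 34 members reached 50 summed counts in some cell class and are described with their values, and the other 19 are given by their counts.

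The study dissociated frozen testis and sequenced single cells on a droplet platform with 1 library from a yak (*Bos grunniens*) and 1 from a cattle-yak, the hybrid of yak and cattle (*Bos grunniens* x *Bos taurus*). Both animals were sampled after sexual maturity, the labels name no treatment for either, and each library came from 1 animal. Every comparison of the libraries is therefore a comparison of 2 animals, without a replicate check and without a p-value, and cross, animal, library and dissociation cannot be told apart. The labels describe the material as germ cells, but most cells carried markers of somatic and immune classes.

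Ligands of this superfamily are secreted dimers that bring together type II and type I serine/threonine kinase receptors, and the type I receptor then phosphorylates receptor SMADs, which enter the nucleus with SMAD4. TGF-beta and activin receptors act mainly through SMAD2 and SMAD3, BMP receptors through SMAD1 and SMAD5, and SMAD6 and SMAD7 are inhibitory. Activin is a dimer of beta subunits, whereas inhibin joins a beta subunit with the alpha subunit encoded by *INHA*. In the testis, inhibin from Sertoli cells restrains the release of follicle-stimulating hormone by the pituitary, and BMPs, activins and TGF-betas are known to act on spermatogonia, peritubular cells and vessels.

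The yak library held 11991 cells with 60816600 unique molecular identifiers (UMIs, each counting 1 captured molecule), and the cattle-yak library held 8930 cells with 43774841 UMIs. Cells with a mitochondrial share of UMIs under 30% were kept, which left 11114 and 7620 cells with a median of 2672.5 and 3160.5 UMIs. The median mitochondrial share of the kept cells was 14.1% in the yak and 19.2% in the cattle-yak, and 24 cell barcodes occurred in both libraries. Each library was clustered without the 53 members, so that their levels played no part in drawing the classes. Levels are CPM, the counts of a gene for every 1000000 UMIs of the summed cells of a class, with an exact Poisson 95% interval in brackets, and the intervals cover counting error only. Levels of different genes are not compared.

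Clusters were named from marker lists. Peritubular-like cells numbered 415 in the yak and 342 in the cattle-yak, muscle-like cells 670 and 848, pericyte-like cells 209 and 114, stromal-like cells 895 and 2848, blood endothelial (EC-like) cells 939 and 802 and lymphatic EC-like cells 726 and 307. Spermatogonia-like (SPG-like) cells numbered 450 and 224, spermatocyte-like (SPC-like) cells 444 and 106, and spermatid-like (SPT-like) cells 485 and 0. T/NK-like cells numbered 3683 and 1123, and macrophage-like cells 216 and 102. No cluster was named Sertoli-like. A cluster with the defensin gene *DEFB123* and *AARD* among its leading genes held 35 and 103 cells with a median of 1032 and 1283 UMIs and is called the DEFB123/AARD cluster. Of the 16 Sertoli markers with a row, *SOX9* alone was enriched in it, at 335 CPM in the yak and 451 CPM in the cattle-yak. *CITED1*, *FSHR* (the receptor of follicle-stimulating hormone), *MRO* and *GATA4* also lay above the other yak cells, by log2 ratios of 5.04, 3.94, 3.43 and 3.14, but from 1 to 3 counts each and in under 10% of its cells. *SHBG*, *CYP26B1* and *WT1* lay above them by less than a log2 ratio of 1. The markers *LHX9*, *NR5A1*, *PRND*, *VNN1*, *ERBB4*, *DHH* and *SOX8* had 0 counts in the yak cluster and *DMRT1* had 2. Their log2 ratios were -5.51 to -0.118, with 53.8 CPM as the upper limit for 0 counts. In the cattle-yak cluster *CITED1*, *MRO*, *NR5A1*, *SHBG*, *DHH* and *GATA4* lay above the other cells, by log2 ratios from 4.66 to 1.97. Each had 1 to 12 counts and lay in under 10% of the cells. *WT1* lay above by 0.386, and *LHX9*, *CYP26B1*, *DMRT1*, *FSHR*, *PRND*, *VNN1*, *ERBB4* and *SOX8* lay below, by -2.09 to -0.0378. *CRYAB*, which the study stained as a Sertoli cell protein, was higher in this cluster than in every other class, at 612 CPM (441 to 827) in the yak and 1662 CPM (1512 to 1823) in the cattle-yak. A cluster led by *WFDC2*, a gene the study used as a Sertoli marker together with *SOX9*, held 77 and 56 cells with *SOX9* at 301 and 375 CPM. In the yak 6 epithelial markers were enriched in it, more than of any other list, and 2 of them stood among its 10 leading genes. In the cattle-yak 4 Sertoli and 3 epithelial markers were enriched in it, and 2 epithelial but 0 Sertoli markers stood among its 10 leading genes. Stromal-like, SPG-like and SPC-like cells consisted of different clusters in the 2 animals, so the levels of these classes are given side by side, and single clusters are compared in their place.

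**Figure D1:**
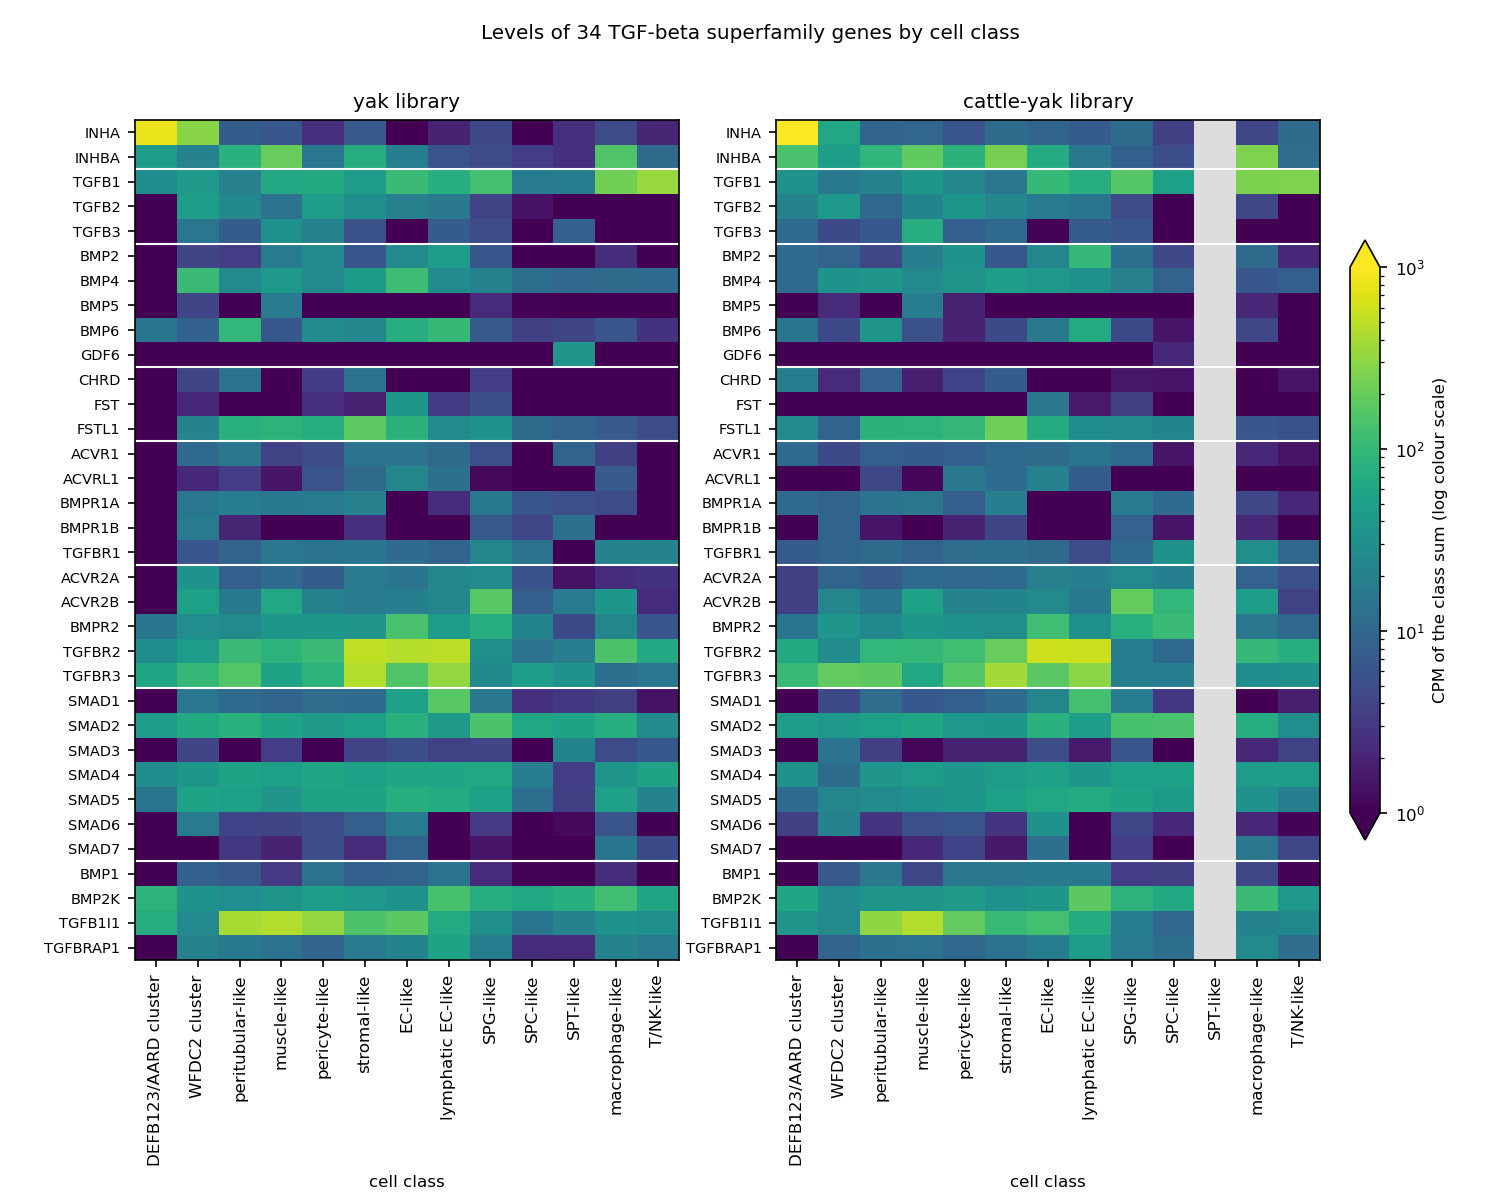
Level of the 34 named members (rows, grouped by role with white lines) in each cell class (columns) of the yak library and of the cattle-yak library, as CPM of the class sum on a log colour scale drawn from 1 to 1000 CPM. *INHA* stands out in the DEFB123/AARD cluster of both libraries, *GDF6* in SPT-like cells, and the grey column marks the class with 0 cells in the cattle-yak.

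A member was called in a class where its log2 ratio of CPM + 1 over all other kept cells of the library was at least 1 with at least 20 counts in the class. In the yak, 34 of the 38 members with enough counts in some class were called in at least 1 class (89.5%, against 84.7% of all genes), and in the cattle-yak 28 of 35 (80%, against 71.7% of all genes). In the yak the endothelial classes held the most calls. In yak EC-like cells 9 of 27 members were called, where 9.64% of all genes were, and in yak lymphatic EC-like cells 9 of 24 (8.69% of all genes). Stromal-like cells had 8 of 29 (12.5% of all genes), peritubular-like cells 6 of 20 (13% of all genes), muscle-like cells 6 of 25 (8.88% of all genes) and pericyte-like cells 5 of 17 (9.77% of all genes). Germ classes stood under their background, with 6 of 28 members called in SPG-like cells (33.9% of all genes), 1 of 19 in SPC-like cells (37.9%) and 4 of 17 in SPT-like cells (42.2%). T/NK-like cells had 1 of 19 (11.2%), macrophage-like cells 2 of 10 (17.3%), the WFDC2 cluster 3 of 8 (14.3%) and the DEFB123/AARD cluster 1 of 1 (32.7%).

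Fewer members were called in the cattle-yak, where EC-like, lymphatic EC-like and SPG-like cells had the same number of calls. Its EC-like cells had 6 of 28 members called (10.5% of all genes), lymphatic EC-like cells 6 of 18 (7.62%), stromal-like cells 5 of 30 (9.09%), muscle-like cells 4 of 27 (8.13%) and peritubular-like cells 2 of 15 (8.54%). Pericyte-like cells, 114 in number, had 0 of 7 (7.65%). SPG-like cells had 6 of 29 (40.6%), SPC-like cells 1 of 11 (50%), macrophage-like cells 3 of 7 (20.9%), T/NK-like cells 1 of 14 (11.3%), the WFDC2 cluster 1 of 3 (12%) and the DEFB123/AARD cluster 1 of 3 (23.5%). The other kept cells of each library included a cluster of mixed markers, with 582 yak and 391 cattle-yak cells. The pericyte markers *KCNJ8*, *HIGD1B* and *ABCC9* stood among its leading genes, and endothelial markers were enriched in it. The part of this cluster in the pericyte-like and endothelial calls was not tested.

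*INHA*, the alpha subunit that turns an activin beta chain into inhibin, was concentrated in the DEFB123/AARD cluster in both animals. Its level there was 816 CPM (616 to 1059.7) in the yak and 1001 CPM (885 to 1127.3) in the cattle-yak, and the intervals overlapped. The WFDC2 cluster followed with 297 CPM (250 to 351) in the yak and 62.6 CPM (41.2 to 91.0) in the cattle-yak. In every other named class *INHA* stayed at or under 11.6 CPM. The high level of the yak WFDC2 cluster came from few cells, since 126 of its 139 *INHA* counts lay in 3 cells and 84 lay in 1 cell. By contrast, the 3 highest cells held 26 of 56 counts in the yak DEFB123/AARD cluster and 63 of 271 in the cattle-yak one.

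With 1000 UMIs drawn from each cell, 9 of 19 yak cells of the DEFB123/AARD cluster had an *INHA* UMI (47.4%, exact binomial 95% interval 24.4 to 71.1), and 39 of 63 cattle-yak cells did (61.9%, 48.8 to 73.9). This thinning left out 16 and 40 shallower cells, and without it the shares were 51.4% and 79.6%. T/NK-like cells, which should lack inhibin, gave 0.315% and 1.11% after thinning and the shares of the cluster lay above these. The median depth before thinning was 1942 UMIs in yak and 2280 UMIs in cattle-yak T/NK-like cells. The low levels outside the cluster were themselves higher in the cattle-yak, with 10.8 CPM (7.28 to 15.4) among T/NK-like and 9.58 CPM (6.99 to 12.8) among EC-like cells, against 2.12 and 0.956 CPM in the yak. *INHA* passed the fold between libraries in both of these classes, and the part of free RNA in that was not tested.

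Most *INHA* molecules of the cattle-yak lay outside the kept cells. Cells at or over the mitochondrial limit numbered 1310 in the cattle-yak and held 2240 of its 2874 *INHA* counts (77.9%), while the 877 removed yak cells held 30 of 384 (7.81%). In the removed cells *INHA* reached 387 CPM (371 to 403) in the cattle-yak and 16.0 CPM (10.8 to 22.9) in the yak. By range of mitochondrial share the cattle-yak level was 13.6 CPM under 20%, 22.2 CPM from 20 to 30%, 261 CPM from 30 to 40%, 626 CPM from 40 to 60% and 261 CPM from 60%. In the yak the same 5 ranges gave 5.85, 7.62, 11.1, 27.9 and 5.71 CPM, with the highest value again from 40 to 60%. The next highest share of cattle-yak counts in removed cells among the members was 27.5%, for *FSTL3* with 40 counts in all, and *INHBA* had 8.93%.

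When the cells were clustered again with no mitochondrial limit, an alternative chosen after these counts were seen, the DEFB123/AARD cluster held 42 yak and 516 cattle-yak cells. In the cattle-yak, 417 of the 516 cells were over the limit, and the median cell of the cluster had 4599 UMIs and a mitochondrial share of 48.4%. An *INHA* UMI was found in 448 of the 516 cells (86.8%), without thinning. The level of *INHA* was 624 CPM (490.4 to 782) in the yak cluster and 850.5 CPM (816 to 886) in the cattle-yak cluster, and with mitochondrial UMIs left out of the denominator it was 898 and 1664 CPM. In that larger cattle-yak cluster, 4 of 16 Sertoli markers were enriched, namely *SOX9*, *CITED1*, *GATA4* and *MRO*. *FSHR* had 23 counts there (8.40 CPM, a log2 ratio of 3.13 over the other cells) in 4.07% of the cells, under the 10% asked of an enriched marker, and *SOX8* and *VNN1* had 0. The markers *LHX9*, *CYP26B1*, *DMRT1* and *WT1* lay below the other cells there, by log2 ratios of -2.28, -2.03, -1.22 and -0.613. The cluster kept the name of its leading genes. The part of the high mitochondrial share in these levels was not tested.

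**Figure D2:**
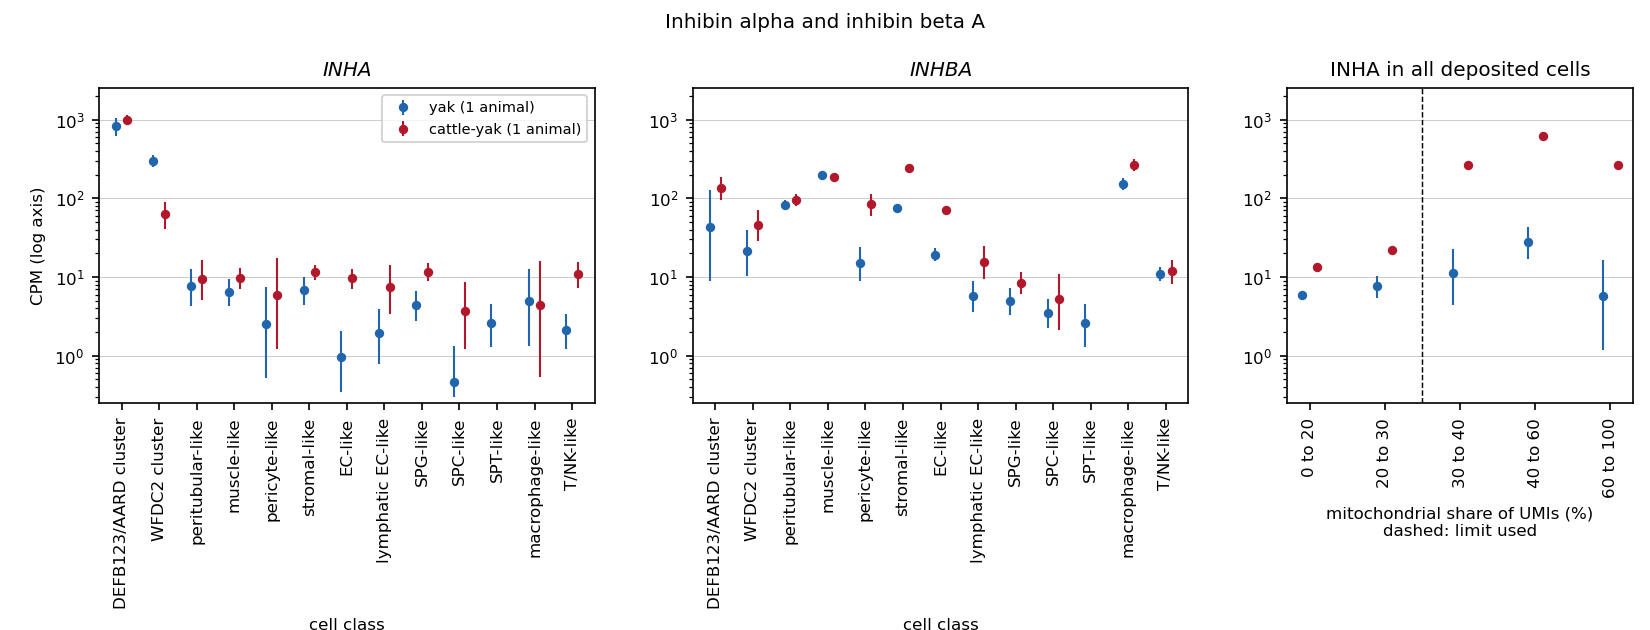
Level of *INHA* (left) and *INHBA* (centre) by cell class, and of *INHA* in all deposited cells by range of mitochondrial share (right), as CPM on log axes with exact Poisson 95% intervals, blue for the yak and red for the cattle-yak. *INHA* peaks at 816 and 1001 CPM in the DEFB123/AARD cluster, and in the cattle-yak it reaches 626 CPM in cells with a mitochondrial share of 40 to 60%, to the right of the dashed limit.

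*INHBA*, the beta A subunit shared by activin A and inhibin A, was spread over mesenchymal cells and macrophages. The study counted it among its markers of Leydig and myoid cells, and it was left out of the naming here. In the yak it was called in muscle-like cells at 199 CPM (185 to 213), in macrophage-like cells at 152 CPM (126 to 181), in peritubular-like cells at 82.5 CPM (70.3 to 96.2) and in stromal-like cells with 74.6 CPM (66.2 to 83.8). In the cattle-yak it was called in macrophage-like cells at 265 CPM (220 to 317), in stromal-like cells with 243 CPM (232 to 254) and in muscle-like cells at 184 CPM (172 to 197). The intervals of the animals overlapped in muscle-like and peritubular-like cells and lay apart in macrophage-like cells, where the log2 ratio of 0.80 stayed within the fold. Germ classes were low, with values from 2.57 to 8.49 CPM over SPG-like, SPC-like and SPT-like cells.

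In the DEFB123/AARD cluster *INHBA* was 43.7 CPM (9.02 to 128) in the yak from 3 counts and 137 CPM (96.2 to 188) in the cattle-yak from 37 counts. After thinning, 7 of 63 cattle-yak cells had an *INHBA* UMI, and 5 of these 7 had an *INHA* UMI too, while 0 of 19 yak cells had an *INHBA* UMI. At this depth most cells with such a level would show no UMI, so the share of cells that carried both subunits was not measurable. *INHBB*, the beta B subunit, had 3 counts in all yak cells and 11 in all cattle-yak cells, and *INHBC* and *INHBE* had 0, too few to place these subunits in any class.

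*TGFB1*, a ligand with broad effects on immune cells, was called in T/NK-like cells of both libraries and in cattle-yak macrophage-like cells. Its level in T/NK-like cells was 341 CPM (329 to 354) in the yak and 262 CPM (244 to 282) in the cattle-yak, and in macrophage-like cells it was 231 CPM (199 to 267) and 254 CPM (210 to 305). SPG-like cells carried 128 and 160.3 CPM, and SPC-like cells 16.6 and 49.4 CPM. Pericyte-like cells had 65.8 CPM (52.0 to 82.1) in the yak and 23.9 CPM (12.3 to 41.7) in the cattle-yak.

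*TGFB3* was called in muscle-like cells of both libraries and in yak pericyte-like cells, and *TGFB2* in the WFDC2 cluster, pericyte-like and stromal-like cells of the yak and in no cattle-yak class. *TGFB3* was highest in muscle-like cells, with 31.9 CPM (26.6 to 37.9) in the yak and 74.8 CPM (67.0 to 83.3) in the cattle-yak, and the intervals did not overlap. It was the 1 member of 28 past the fold between libraries in that class, where 3.15% of all genes were higher and 4.81% lower in the cattle-yak, and with no mitochondrial limit its log2 ratio fell from 1.21 to 0.97, within the fold. The class was a single cluster of 670 cells in the yak and joined clusters of 360 and 488 cells in the cattle-yak. The part of this make-up in the *TGFB3* difference was not tested. *TGFB2* was highest in the WFDC2 cluster and in pericyte-like cells, at 47.0 and 45.6 CPM in the yak and at 39.4 and 37.8 CPM in the cattle-yak. The endothelial cluster with *BMX* among its leading genes had 39.8 and 39.0 CPM. In peritubular-like cells *TGFB2* was 24.8 CPM (18.4 to 32.8) in the yak and 10.3 CPM (5.63 to 17.3) in the cattle-yak.

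*BMP6* was lower in the cattle-yak in peritubular-like, pericyte-like and EC-like cells. It was also lower in T/NK-like cells, its lowest class in both libraries, at 2.74 CPM in the yak and 0.720 CPM in the cattle-yak. The part of free RNA in these low levels was not tested. BMP6 is a ligand of the BMP receptors known for its part in iron balance through endothelial cells of the liver. In the yak its calls were lymphatic EC-like cells with 101 CPM (91.2 to 112), peritubular-like cells with 98.2 CPM (84.9 to 113) and EC-like cells with 74.6 CPM (68.0 to 81.7). In the cattle-yak these classes had 68.5 CPM (54.5 to 84.9), 36.0 CPM (26.7 to 47.7) and 16.0 CPM (12.6 to 20.0). Pericyte-like cells had 27.8 CPM (19.2 to 39.1) from 33 counts in the yak and 1.99 CPM (0.0504 to 11.1) from 1 count in the cattle-yak. The log2 ratio of cattle-yak over yak was -1.42 in peritubular-like, -3.27 in pericyte-like and -2.15 in EC-like cells, where the median over all genes was -0.27, -0.14 and -0.05. Over all deposited cells *BMP6* had 1680 counts in the yak and 373 in the cattle-yak, and the intervals of all kept cells, 26.6 to 29.3 CPM and 8.25 to 10.2 CPM, did not overlap.

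*BMP4* and *BMP2*, closely related BMP ligands, were both called in endothelium. *BMP4* was called in yak EC-like cells at 117 CPM (108 to 125), while cattle-yak EC-like cells had 39.8 CPM (34.3 to 46.0), and no class of the cattle-yak was called for it. The yak WFDC2 cluster was called as well, at 111 CPM (82.9 to 146). Stromal-like cells, which consisted of different clusters in the 2 animals, had 43.1 CPM (36.8 to 50.2) and 47.1 CPM (42.4 to 52.3). Among the classes, *BMP2* was highest in lymphatic EC-like cells, with 45.8 CPM (39.1 to 53.4) in the yak and 100.6 CPM (83.6 to 120.2) in the cattle-yak. The single endothelial cluster with *BMX* stood above the lymphatic class in the yak, at 74.0 CPM (61.8 to 87.9). In the cattle-yak it had 77.1 CPM (62.1 to 94.7), and the intervals overlapped. The endothelial cluster with *CA4* had 7.30 and 0.377 CPM. *BMP2* was also called in yak EC-like and pericyte-like cells, at 26.0 and 26.2 CPM. *BMP5* was called in muscle-like cells only, at 16.8 and 18.1 CPM. The lymphatic class had *BMP2* and *INHBA* higher and 0 of 24 members lower, with 2.51% and 12.2% of all genes higher and lower.

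**Figure D3:**
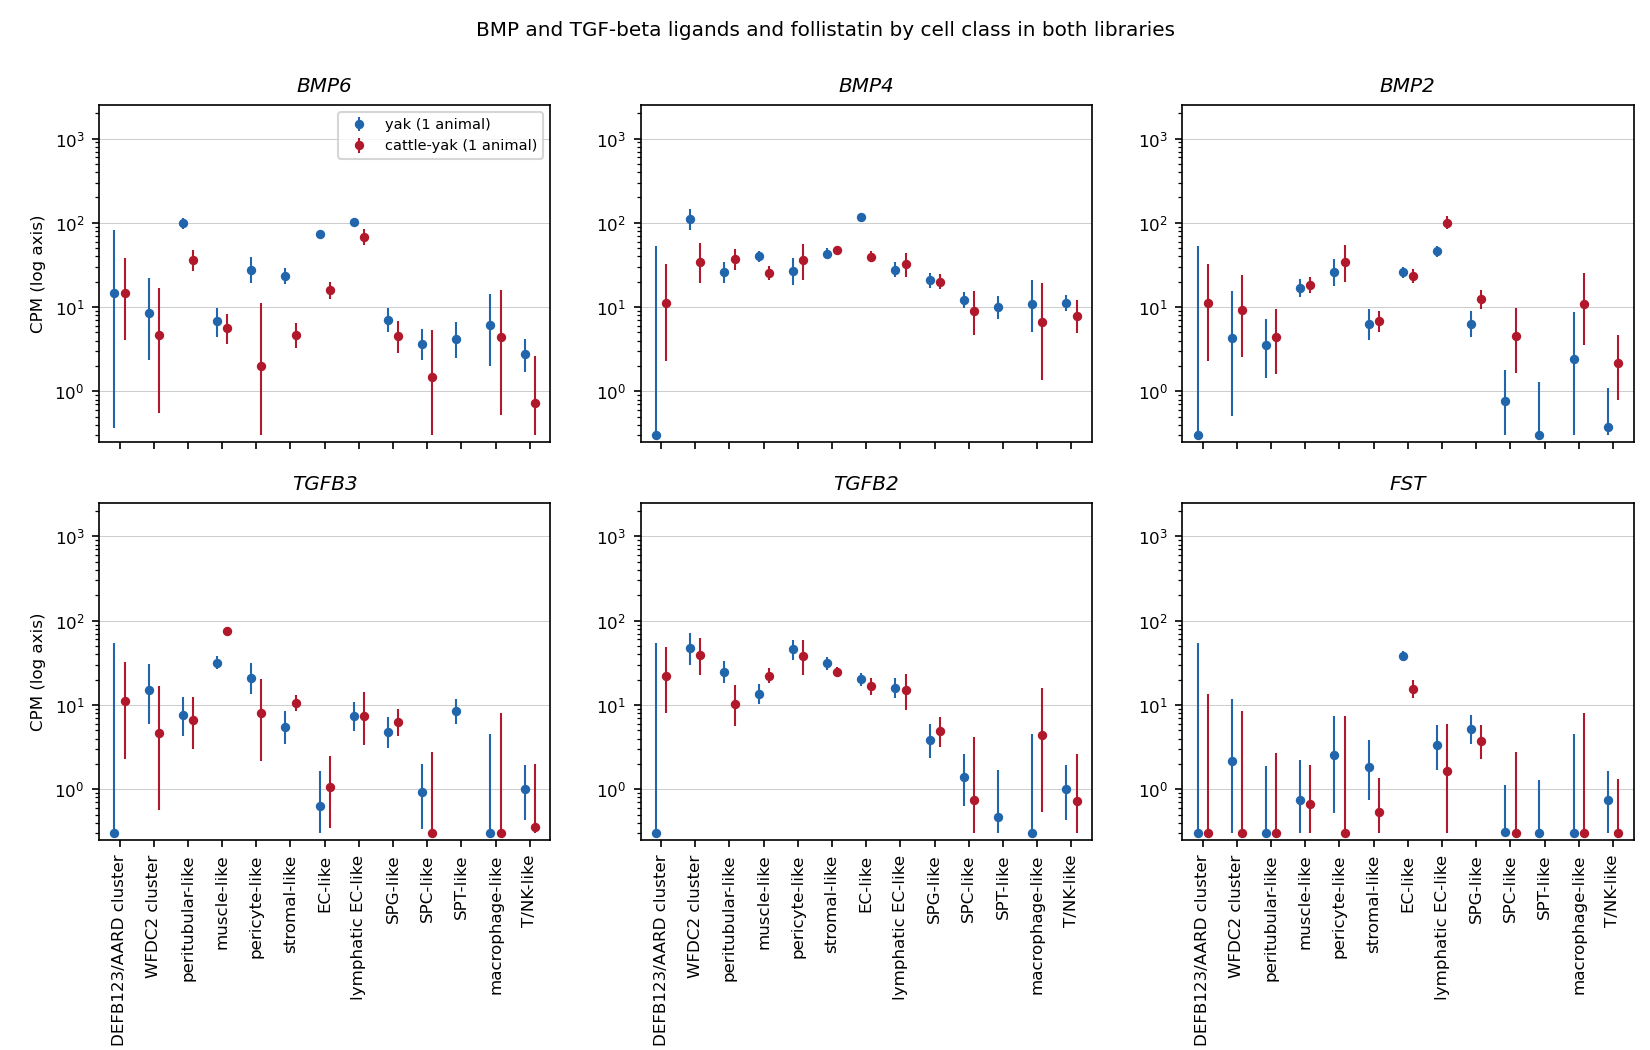
Level of *BMP6*, *BMP4*, *BMP2*, *TGFB3*, *TGFB2* and *FST* by cell class as CPM on log axes, with exact Poisson 95% intervals, blue for the yak and red for the cattle-yak; a level of 0 is drawn at the bottom of the axis and SPT-like has yak cells only. *BMP6* lies lower in the cattle-yak in peritubular-like, pericyte-like and EC-like cells, and *TGFB3* lies higher in muscle-like cells.

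Among the antagonists, *FST*, which binds activins, was called in EC-like cells only, at 38.1 CPM (33.4 to 43.2) in the yak and 15.5 CPM (12.2 to 19.5) in the cattle-yak, and in no other class did it exceed 5.20 CPM. *FSTL1*, a secreted follistatin-like glycoprotein, had its calls in stromal-like cells, with 180 CPM (167 to 194) in the yak and 218 CPM (207 to 228) in the cattle-yak. *CHRD*, which binds BMPs, was called in stromal-like cells of both libraries, with 13.7 CPM (10.2 to 17.9) in the yak and 7.46 CPM (5.63 to 9.68) in the cattle-yak, and in yak peritubular-like cells at 13.2 CPM (8.60 to 19.3). *NOG* had 7 counts in each library and *FSTL3* had 46 and 40.

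In EC-like cells 28 members could be compared between the libraries. *INHA* and *INHBA* were higher in the cattle-yak, where 3.31% of all genes were, and *BMP4*, *BMP6*, *FST* and *SMAD1* were lower, where 4.03% of all genes were. *INHBA* went from 19.3 CPM (16.0 to 23.0) to 70.1 CPM (62.7 to 78.1), and *SMAD1* from 51.5 CPM (46.0 to 57.4) to 23.0 CPM (18.9 to 27.8). The class held 2 yak and 3 cattle-yak clusters, so single clusters that share leading genes were set side by side, a choice made after the clusters were seen.

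The cluster with *BMX*, *SEMA3G* and *HEY1* among its leading genes held 245 yak and 189 cattle-yak cells, and its 10 leading genes in the 2 animals shared 8. Its *BMP6* was 68.3 CPM in the yak and 24.6 CPM in the cattle-yak, its *INHBA* 12.5 and 33.1 CPM and its *SMAD6* 33.0 and 78.0 CPM. These were the members past the fold out of 26, with 2.68% of all genes higher and 5.15% lower. *BMP4* there was 71.7 and 38.1 CPM (log2 ratio -0.89), and *BMP2* was 74.0 and 77.1 CPM.

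The cluster with *CA4* and *SLCO2A1* among its leading genes held 694 and 527 cells, and 3 of 10 leading genes were shared. Its *BMP6* was 77.0 CPM in the yak and 7.92 CPM in the cattle-yak, its *BMP4* 134 and 29.8 CPM, its *FST* 51.6 and 24.5 CPM and its *SMAD1* 53.6 and 23.4 CPM. *BMP2* was also lower there, with 33 counts against 1 count, and *INHBA* was higher, with 21.9 against 58.1 CPM. *INHA* passed as well, so that 2 of 28 members were higher and 5 lower, with 3.99% and 5.69% of all genes. The lower *BMP6* and the higher *INHBA* were thus found in both pairs. *FST*, lower in the CA4 cluster, had 6 and 0 counts in the BMX cluster and could not be compared there. A further cattle-yak EC-like cluster of 86 cells, led by *SELP* and *IL6*, was left unpaired although it too shared 3 of 10 leading genes with the yak CA4 cluster, *CA4* and *TFPI2* among them. It had *BMP6* at 28.9 CPM (18.7 to 42.7), *BMP4* at 72.9 CPM (56.0 to 93.3), *BMP2* at 20.8 CPM, *FST* at 9.26 CPM, *SMAD1* at 18.5 CPM and *INHBA* at 157 CPM. The size of the *BMP6*, *BMP4* and *BMP2* differences thus depends on which cattle-yak cluster is set against the yak one.

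Stromal-like cells fell into 1 cluster in the yak and 4 in the cattle-yak. The yak cluster shared *COL28A1* and *CLEC12B* among its leading genes with a cattle-yak cluster of 816 cells, and this pair was compared in place of the class. The 10 leading genes of the cattle-yak cluster held 0 stromal markers and 1 of another class, so that the pair is one of single clusters and not of a checked cell class. *TGFBR2* was 519 CPM (496 to 542) in the yak and 247 CPM (227 to 268) in the cattle-yak. Its log2 ratio was -1.07, where the median over all genes of the pair was -0.249. *TGFB1* was 44.2 and 16.4 CPM, and *BMP6* was 23.7 and 6.46 CPM. *CHRD* and *SMAD6* were lower as well, and *BMPR1B* was higher with 10 and 16 counts, so that 1 of 31 members was higher and 5 lower, where 2.09% and 11.7% of all genes were. *INHBA* was 74.6 CPM in the yak and 131 CPM in the cattle-yak, which did not pass the fold (log2 ratio 0.80), and it stood at 234, 338 and 237 CPM in the other cattle-yak stromal clusters. The 2 most abundant unnamed features took 14.4% of the stromal-like sum in the yak and 22.6% in the cattle-yak. The cattle-yak share is that of the whole class and not of the paired cluster. The part of these features in the levels was not tested.

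In peritubular-like cells *BMP1* was higher and *BMP6* and *TGFB2* were lower in the cattle-yak among 25 members (2.32% and 8.58% of all genes). In pericyte-like cells *INHBA* was higher, at 83.6 against 15.2 CPM, and *BMP6*, *BMPR1A*, *TGFB1* and *TGFB3* were lower among 20 members (3.05% and 9.14% of all genes). That *INHBA* difference did not hold when the classes were drawn from all cells, since with no mitochondrial limit its log2 ratio was -0.037. In macrophage-like cells *TGFBR3* was higher among 13 members (3.41% of all genes higher, 8.94% lower), with 10 and 13 counts. In T/NK-like cells *INHA* and *TGFBR3* were higher and *BMP6* was lower among 21 members (2.17% and 9.88%). In the DEFB123/AARD cluster *INHBA* and *TGFBR2* were higher among 5 members (14.9% and 12.3%), from 3 and 2 counts in the yak. In the WFDC2 cluster *INHBA* was higher and 7 of 15 members, *INHA* and *BMP4* among them, were lower (2.43% and 13.8%). There 3 yak cells held 126 of the 139 yak *INHA* counts. The median cell of this cluster had 2425 UMIs in the yak and 6200.5 in the cattle-yak, and a mitochondrial share of 4.65% and 20.1%. The part of these in the differences was not tested.

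Type I receptors were unevenly shared among the classes. *ACVRL1*, the endothelial type I receptor also known as ALK1, was called in EC-like cells at 22.9 CPM (19.4 to 27.0) in the yak and 21.1 CPM (17.1 to 25.7) in the cattle-yak. *BMPR1A*, a type I receptor of BMPs, was nearly absent from the same cells, with 0.319 and 0.639 CPM, and was called in stromal-like cells at 20.2 and 20.0 CPM. In the yak *BMPR1A* was called in peritubular-like, muscle-like, pericyte-like and SPG-like cells too, at 16.3 to 19.2 CPM. *BMPR1B* was called in SPG-like cells at 7.12 CPM (5.01 to 9.81) and 8.68 CPM (6.31 to 11.7), and in yak SPT-like cells at 12.9 CPM (9.68 to 16.7). *ACVR1* reached 15.7 CPM (10.7 to 22.3) in yak peritubular-like cells and was called in no cattle-yak class. *TGFBR1* was called in cattle-yak SPC-like cells alone, at 34.4 CPM (25.2 to 45.9).

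Type II and type III receptors of TGF-beta marked endothelium and stroma. *TGFBR2* was called in EC-like cells at 469 CPM (452 to 486) and 584 CPM (562 to 606), and in lymphatic EC-like cells at 485 and 571 CPM. Its highest yak class was stromal-like cells, called at 519 CPM (496 to 542), while cattle-yak stromal-like cells were not called. *TGFBR3*, the co-receptor betaglycan, was called in stromal-like cells with 448 CPM (427 to 469.9) in the yak and 381 CPM (367 to 395) in the cattle-yak, and in lymphatic EC-like cells, called in the yak only, it stood at 328 and 300.3 CPM. *BMPR2* was called in EC-like cells at 138 CPM (129 to 148) and 122 CPM (112 to 132), with a log2 ratio within the fold. After thinning, a *TGFBR2* UMI was found in 37.2% of yak and 44.2% of cattle-yak EC-like cells, against 6.29% and 7.10% of T/NK-like cells. The activin receptors *ACVR2A* and *ACVR2B* were called in SPG-like cells, *ACVR2B* at 164 CPM (154 to 176) and 195 CPM (183 to 208) and *ACVR2A* at 26.4 and 25.9 CPM. In the yak *ACVR2B* was called in muscle-like cells too, at 61.0 CPM, and *ACVR2A* in lymphatic EC-like cells, at 23.7 CPM.

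**Figure D4:**
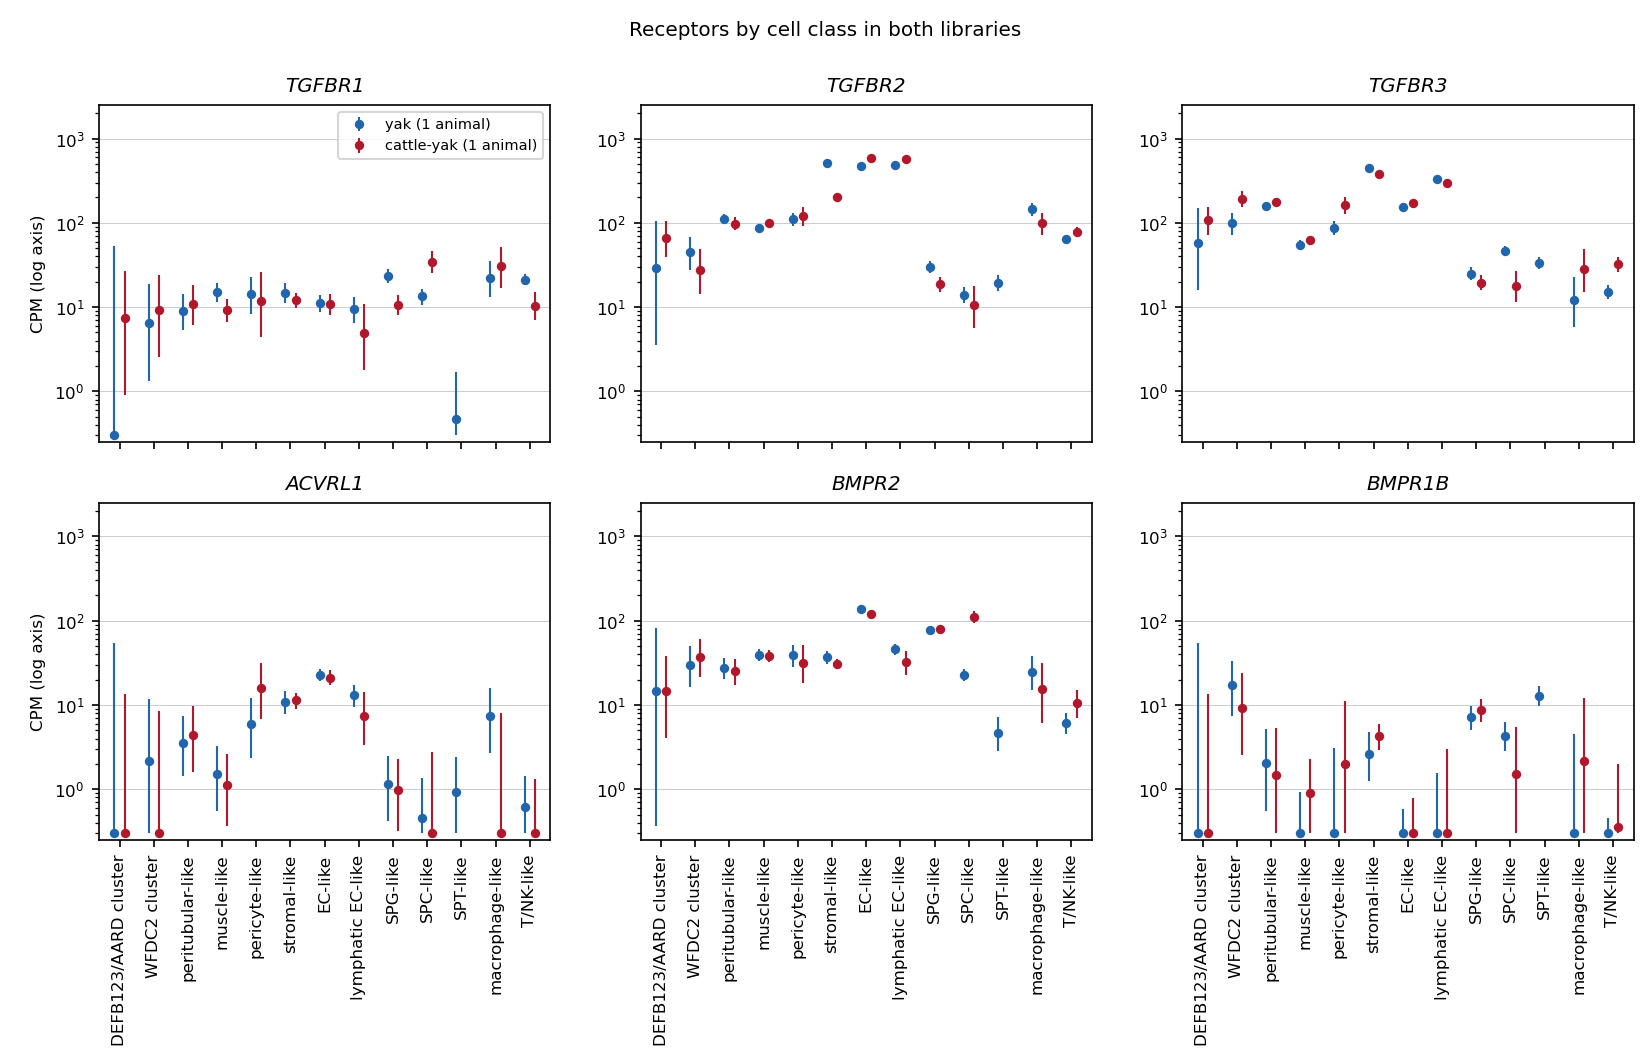
Level of *TGFBR1*, *TGFBR2*, *TGFBR3*, *ACVRL1*, *BMPR2* and *BMPR1B* by cell class as CPM on log axes, with exact Poisson 95% intervals, blue for the yak and red for the cattle-yak; a level of 0 is drawn at the bottom of the axis and SPT-like has yak cells only. *TGFBR2* exceeds 400 CPM in both endothelial classes of both animals and in the yak stromal-like cells, and *ACVRL1* is highest in EC-like cells.

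Among the SMADs, *SMAD4*, the common partner, lay between 35.5 and 61.2 CPM in 10 yak classes and stood lower in SPC-like cells (18.9 CPM) and SPT-like cells (3.51 CPM), with 2 counts in the DEFB123/AARD cluster. *SMAD2* was called in SPG-like cells, at 142 CPM (132 to 153) and 135 CPM (125 to 145). *SMAD1* was called in lymphatic EC-like cells, with 165 CPM (152 to 178) in the yak and 131 CPM (112 to 153) in the cattle-yak. By contrast *SMAD5*, through which BMP receptors also act, was called in no class and lay between 37.2 and 76.3 CPM over the yak mesenchymal and endothelial classes. The inhibitory *SMAD6* was called in EC-like cells at 17.7 and 34.7 CPM, and *SMAD7* there at 9.08 and 12.8 CPM. *SMAD6* was near 0 in lymphatic EC-like cells, with 0.828 and 0.825 CPM. *SMAD3* was called in yak SPT-like cells alone, at 22.7 CPM (18.4 to 27.7).

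Germ cells were followed through single clusters, since the classes held different stages in the 2 animals. A cluster with *DLK1* among its leading genes held 114 yak and 65 cattle-yak cells, and a cluster with *CRABP1* and *CTCFL* among them held 139 and 44 cells. The *CRABP1* cluster was named SPG-like in the yak and SPC-like in the cattle-yak. The cattle-yak *DLK1* cluster and the yak *CRABP1* cluster had 0 markers of their own class and 1 of another among their 10 leading genes, so these pairs are of single clusters by leading gene and not of a checked stage. The cluster led by *RAD51AP2* and by *SYCP3*, which encodes a protein of the synaptonemal complex of meiotic chromosomes, held 78 and 40 cells. The yak also had SPC-like clusters with *PIWIL1* and *LHX1* and SPT-like clusters with *CST8* and *LYZL4* among their leading genes, which were paired with no cattle-yak cluster. Shallow yak clusters of 197 SPG-like, 144 SPC-like and 206 SPT-like cells, with medians of 900, 1129 and 801 UMIs, were not followed. Nor were cattle-yak SPG-like clusters of 81, 32, 32 and 14 cells and an SPC-like cluster of 6 cells. The clusters followed are therefore not the whole of each stage. A cattle-yak cluster with *PIWIL1* among its leading genes held 16 cells, too few to compare.

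*TGFBR1* was higher in the *RAD51AP2* cluster than in the *DLK1* and *CRABP1* clusters in both animals. In the yak its level was 13.2 CPM in the *DLK1* cluster, 35.1 CPM in the *CRABP1* cluster, 78.1 CPM (54.7 to 108) in the *RAD51AP2* cluster, 9.92 CPM in the *PIWIL1* cluster and at most 0.531 CPM in the clusters led by *LHX1*, *CST8* and *LYZL4*. In the cattle-yak it was 7.44, 29.9 and 73.5 CPM (47.1 to 109) in the clusters led by *DLK1*, *CRABP1* and *RAD51AP2*. *BMPR2* had a like order of values, with 70.5, 86.5 and 115 CPM in the yak and 66.3, 107 and 162 CPM in the cattle-yak, and fell to 2.66 CPM in the *LHX1* cluster. Its intervals in the *CRABP1* and *RAD51AP2* clusters overlapped in both animals. They were 75.2 to 98.9 and 86.2 to 150 CPM in the yak, and 84.1 to 135 and 122 to 212 CPM in the cattle-yak. The counts behind the *RAD51AP2* clusters were small, with 36 and 24 *TGFBR1* counts. A yak cluster of 26 cells that also had *SYCP3* among its leading genes was close to it, with *TGFBR1* at 91.0 CPM (61.4 to 129.9) and *BMPR2* at 112 CPM.

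*ACVR2B*, a type II receptor of activins, was lower in the *RAD51AP2* cluster than in the other two in both animals. It was 162 and 170.5 CPM in the *DLK1* and *CRABP1* clusters of the yak and 2.17 CPM from 1 count in the *RAD51AP2* cluster. In the cattle-yak the same 3 clusters had 196, 172 and 33.7 CPM, the last from 11 counts, and the yak cluster of 26 cells had 66.7 CPM. *SMAD2* was highest in the *CRABP1* cluster of these pairs, at 173 CPM (157 to 190) and 203 CPM (170.3 to 240.1), and it was the 1 member past the fold in the *RAD51AP2* pair, at 39.1 against 91.9 CPM (8 members compared, 9.72% of all genes higher). The cattle-yak *RAD51AP2* cluster shared *H3-4* among its leading genes with the yak cluster of 26 cells and not with the paired yak cluster. The part of this make-up in the *SMAD2* and *ACVR2B* values was not tested. No member of 17 passed the fold in the *CRABP1* pair, where 2.78% of all genes were higher and 8.22% lower. In the *DLK1* pair 0 of 29 were higher (1.41%) and *BMP6*, *TGFB1I1*, *TGFBR2* and *TGFBR3* were lower (17.1% of all genes). The median log2 ratio over all genes of that pair was -0.349.

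Several receptors and transducers were low in yak SPT-like cells, and *GDF6* was called there. *TGFBR1* stood at 0.467 CPM, *BMPR2* at 4.67 CPM and *SMAD5* at 3.74 CPM in the class. *GDF6*, a BMP-type ligand, was 37.2 CPM (31.6 to 43.4) there and at most 0.577 CPM in every other yak class. Its level was 53.1 CPM (43.5 to 64.1) in the *CST8* cluster and 24.7 CPM (18.4 to 32.5) in the *LYZL4* cluster. *SMAD3* followed the *CST8* cluster, with 41.7 CPM against 5.81 CPM in the *LYZL4* cluster, and *BMPR1B* the *LYZL4* cluster, with 20.8 CPM against 5.95 CPM. A shallow SPT-like cluster of 206 cells was not set beside these clusters. The cattle-yak had no SPT-like cells and 3 *GDF6* counts in all kept cells.

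**Figure D5:**
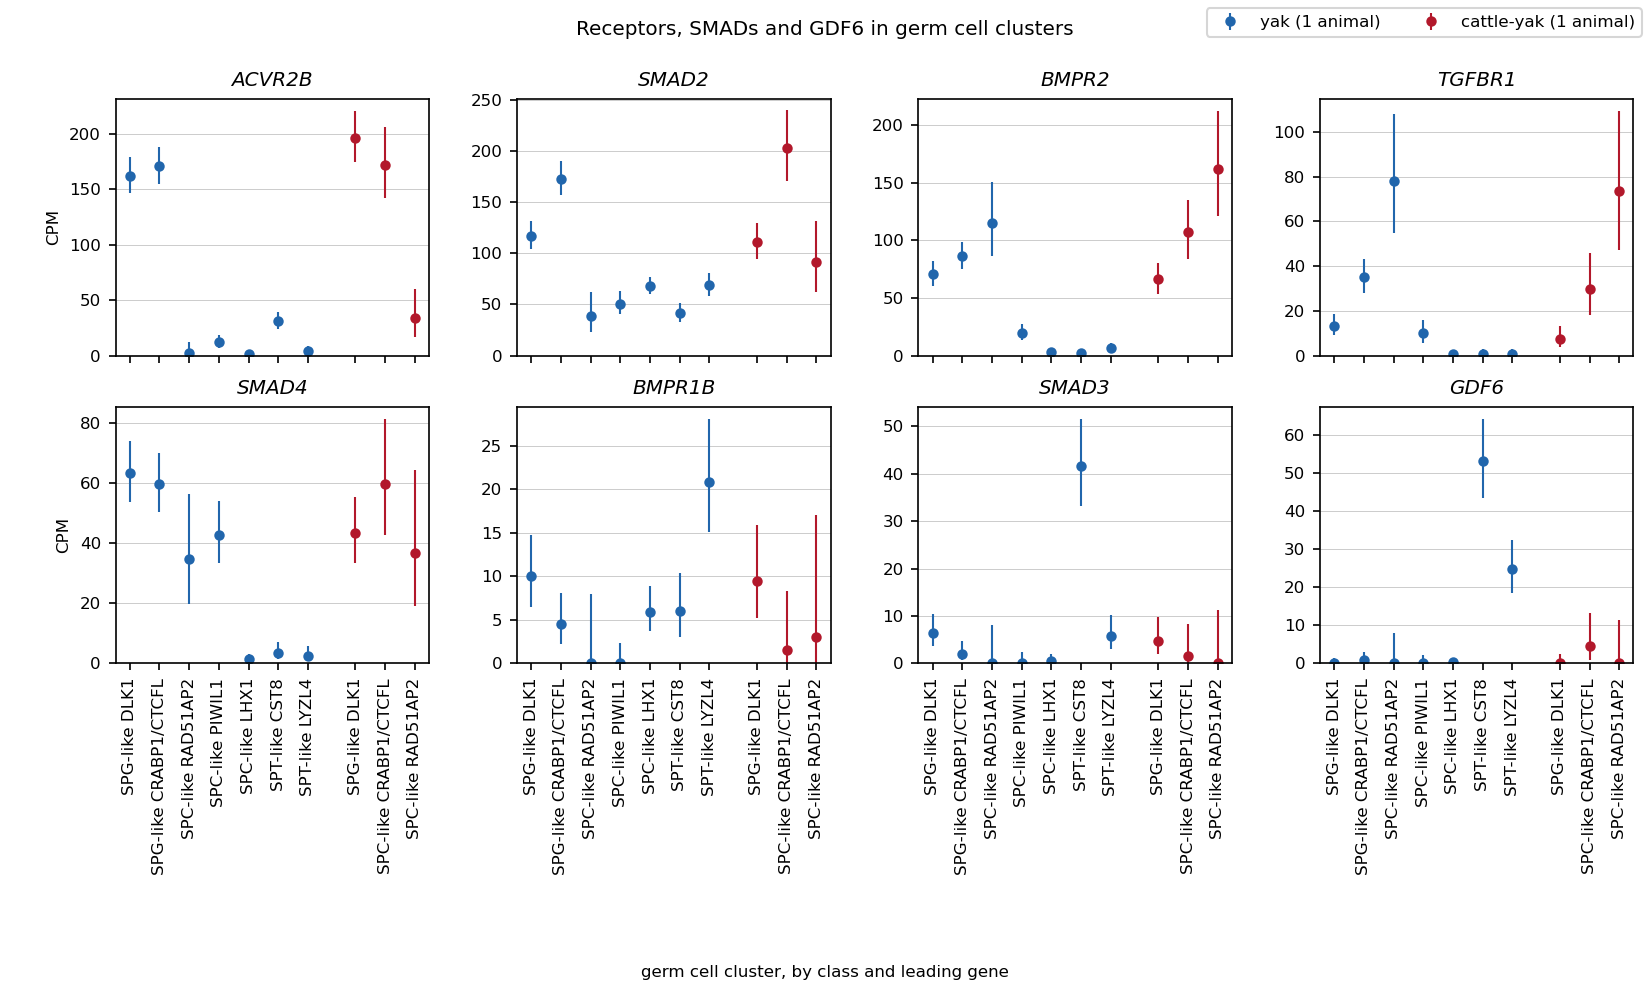
Level of *ACVR2B*, *SMAD2*, *BMPR2*, *TGFBR1*, *SMAD4*, *BMPR1B*, *SMAD3* and *GDF6* in single germ cell clusters named by class and leading gene, as CPM on linear axes with exact Poisson 95% intervals, blue for 7 yak clusters and red for 3 cattle-yak clusters. *TGFBR1* is highest in the RAD51AP2 cluster of each animal among the clusters drawn, at 78.1 and 73.5 CPM, and *GDF6* and *SMAD3* appear in the yak CST8 cluster, at 53.1 and 41.7 CPM.

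As whole classes, SPC-like cells had 9 of 21 members higher and 2 lower in the cattle-yak, where 25.6% and 27.4% of all genes were higher and lower, with *ACVR2B* at 95.8 against 8.01 CPM. The yak class held the *PIWIL1* and *LHX1* clusters, and 44 of the 106 cattle-yak cells were the *CRABP1* cluster, which was SPG-like in the yak. *ACVR2B* stood at 172 CPM in that cattle-yak cluster, so the class values do not compare like stages. The authors' own germ cell types of the yak gave *TGFBR1* at 80.8 CPM (51.2 to 121) in early spermatocytes. Their 84 spermatogonial stem cells carried *PECAM1*, an endothelial marker, at 1182 CPM and *TGFBR2* at 189 CPM, and the part of endothelial RNA in that type was not tested.

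Another 4 members matched the rule by symbol and are not ligands, receptors or SMADs. *TGFB1I1*, a focal adhesion adaptor also called Hic-5, was called in muscle-like cells at 453 CPM in each library and in peritubular-like cells at 401 and 321 CPM. *BMP2K*, a kinase of clathrin adaptors, was called in lymphatic EC-like cells at 134 and 177 CPM and in macrophage-like cells at 119.9 and 109.6 CPM. *TGFBRAP1*, a receptor-associated protein, was called in lymphatic EC-like cells at 54.4 and 45.4 CPM. *BMP1*, a procollagen proteinase, was called in yak lymphatic EC-like cells at 14.1 CPM.

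Of the 19 members under 50 counts in every class, *ACVR1B* was called in SPG-like cells of both libraries at 9.04 and 9.67 CPM. *ACVR1C* was called at 5.52 CPM in yak stromal-like, 6.78 CPM in yak SPT-like and 6.51 CPM in cattle-yak SPG-like cells. *GDF9*, known from the oocyte, was called in yak SPC-like cells at 4.77 CPM from 31 counts. *GDF11* had 145 and 100 counts in all cells of the yak and the cattle-yak and was called in no class. *BMP7*, *GDF10*, *GDF15*, *GDF2* and *BMP3* had 4 to 13 counts in each library. *BMP15*, *GDF3* and *GDF5* had 0 to 6, and *BMP10* and *GDF7* had 0 in both.

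Other genes of the pathway were taken from 6 lists by role. Of the genes of TGF-beta latency and activation, 6 of 6 with enough counts were called in some class in the yak and 5 of 7 in the cattle-yak. Of all genes 84.7% and 71.7% were called in some class, and the counts of this list and of the lists that follow are read against these shares. *LTBP4*, which binds latent TGF-beta in the matrix, stood at 2486 and 2628 CPM in stromal-like cells. *LTBP1* was highest in muscle-like cells at 269 and 184 CPM, and *LTBP2* was called in stromal-like cells at 25.8 and 18.0 CPM. Co-receptors and decoys had 5 of 5 and 3 of 5 called, and endoglin (*ENG*), the partner of ACVRL1, stood at 650.4 and 911 CPM in EC-like cells.

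Further antagonists had 6 of 6 and 3 of 3 called. *CHRDL2*, a chordin-like BMP binder, was called in the yak WFDC2 cluster at 226 CPM, and *FSTL5* and *FSTL4* in yak SPT-like cells at 27.8 and 18.0 CPM. Intracellular regulators had 7 of 10 called in each library. *ZFYVE9*, known as SARA, which presents SMAD2 and SMAD3 to the receptor, was called in SPG-like cells at 268 and 229.9 CPM, where *SMAD2* was called too. *PMEPA1* was highest in pericyte-like cells at 551 and 410.1 CPM, and *SMURF1* was called in yak SPC-like cells at 20.8 CPM.

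Known target genes had 9 of 9 called in each library. *ID1*, a target of BMP signalling, was called in EC-like cells at 779.8 and 997 CPM and in lymphatic EC-like cells at 771 and 1180.5 CPM. *ID4* was called in muscle-like cells at 343 and 246 CPM, and *TGFBI* in macrophage-like cells at 92.9 and 313 CPM. Among the other ligands 1 of 1 was called in each library, *GDNF*, a factor for spermatogonial stem cells, in muscle-like cells at 7.28 and 9.83 CPM.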

How the data were processed

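The authors deposited 1 table of UMI counts per library, raw and not normalized. The headers of the deposited count files name Cell Ranger 5.0.0, and the submitters' processing notes name Cell Ranger 2.1.1. Both libraries were aligned by the authors to a yak genome, and the effect of cattle alleles on the cattle-yak counts was not tested.

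Cells with a mitochondrial share under 30% (37 mitochondrial features) were kept, with no upper limit on genes or UMIs. Each library was clustered on log counts per 10000 with 2000 variable genes, 30 principal components, 15 neighbours and Leiden resolution 1 (scanpy 1.11.5, igraph 0.11.9, numpy 2.4.6, scipy 1.17.1, pandas 2.3.3). The 53 members and the mitochondrial features were left out of clustering and naming. Germ clusters were clustered again. A cluster was named from a list with at least 3 enriched markers (log2 ratio of 1 or more, in at least 10% of cells). Among such lists, the one with most markers among the 10 leading genes was taken, and the number enriched decided ties. The details of this naming rule were settled after the clusters had been seen. The yak pericyte-like cluster thus had 9 muscle-like markers enriched, and the cattle-yak peritubular-like cluster had 10 muscle-like against 9 peritubular-like ones. Both peritubular-like clusters had *CYP11A1*, a Leydig and myoid marker of the study, among their leading genes. Clusters with *AARD* and *DEFB123*, or with *WFDC2*, among their 10 leading genes were called by these genes whatever their markers. Clusters with markers of several classes (910 and 625 cells) and unnamed clusters (917 and 20) enter only the background of other cells. So do 43 yak germ cells of open stage. The largest mixed cluster held 582 yak and 391 cattle-yak cells, with 14 and 15 EC and 5 and 6 pericyte markers enriched. The 20 unnamed cattle-yak cells had 3 stromal markers enriched but were under 30 cells. Of the unnamed yak cells, a cluster of 119 had 2 B cell markers enriched, with *IGHM* and *MZB1* among its leading genes. Scrublet marked 0 yak and 251 cattle-yak cells, so it had not worked in the yak, and no doublets were removed.

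Counts were summed per class and library and scaled to CPM. Between libraries a member was called where the absolute log2 ratio of CPM + 1 was at least 1 with at least 20 counts over both and at least 30 cells in each. With 1 animal per library no test was run. The share of all genes called by the same rule stands beside the counts for each class and pair. Counts were simulated for the EC-like comparison of the libraries (16244 genes). Changes were given to 50 genes for each fold and direction, all with at least 50 expected counts in the smaller sum. All these 3-fold and 4-fold changes were called, and 0.255% of unchanged genes. No change was simulated near the minimum of 20 counts, so recovery is not shown for such genes. Variation between animals cannot be estimated from 1 animal per library, so 0.255% is no rate of false calls between animals. In the measured EC-like comparison 3.31% of all genes were higher and 4.03% lower in the cattle-yak. Members with at least 50 counts in some class were named with values. The members and gene lists were chosen with earlier results of these data known. The number of columns from other series was 0.

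Depth was 500 to 170998 UMIs per yak cell and 500 to 64589 per cattle-yak cell. Alternatives were the study's limits on genes and UMIs, a mitochondrial limit of 20%, other clusterings, denominators, folds and count minimums, and, chosen after seeing the data, no mitochondrial limit.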

Additional observations from a re-analysis of the deposited data

Results flagged for a closer look

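*INHA* in the cattle-yak cells at or over the mitochondrial limit was flagged as a signal in data that the class comparisons do not use. It stood at 387 CPM (371 to 403) over these 1310 cells, against 16.0 CPM (10.8 to 22.9) over the 877 yak cells removed by the same limit. Of the removed cattle-yak cells, 32.1% had an *INHA* UMI, against 1.60% of the removed yak cells.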

How the results depend on the processing

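No paired analysis was possible because there is 1 library per group, and no replicate could be left out. Over 10 classes (without the WFDC2, macrophage-like and T/NK-like classes), 55 member and class pairs were called in the yak and 31 in the cattle-yak, and 31 and 20 at a log2 ratio of 1.5. Over the 8 of the comparable classes besides the WFDC2 cluster, 12 member ratios were higher and 11 lower in the cattle-yak. The higher count was 21 with the study's limits on genes and UMIs. With a mitochondrial limit of 20% the counts were 7 higher and 15 lower, and the cattle-yak DEFB123/AARD cluster held 57 cells instead of 103. At a log2 ratio of 1.5 they were 5 and 3, and with a minimum of 50 counts 6 and 7. With no mitochondrial limit, chosen after seeing the data, that cluster held 516 cells and the log2 ratio of *INHBA* in pericyte-like cells turned to -0.037 from 2.39. The share of its cattle-yak cells with an *INHA* UMI was 61.9% as reported, 48.5% when thinned to 500 UMIs and 79.6% without thinning. The cause of these shifts was not tested, apart from the stricter folds and minimums, which call fewer members by construction. No share of all genes was computed for the counts pooled over classes, so their shifts were not set against those of all genes. *BMP6* in EC-like cells stayed between -2.38 and -1.90 on the log2 scale over all alternatives, while in peritubular-like cells it reached -0.99 with the study's limits. Over the named members with a call in some class and over all alternatives, the state of a member in its leading class stayed the same in 598 of 627 cases. A member that was not called in its leading class and stayed so counts as the same. Of the calls between the libraries 185 of 248 were kept, 62 were no longer past the fold or the minimum and 1 was reversed. Rare classes limit the depth: 20 counts were needed for a call, which 1 member reached in the 35 cells of the yak DEFB123/AARD cluster.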
